A study of Mus musculus with 8 samples.

Results

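F-box proteins are the exchangeable parts of SCF ubiquitin ligases. In these ligases the scaffold cullin 1 (Cul1) holds a RING protein (Rbx1) that brings the ubiquitin-carrying enzyme, and the adaptor Skp1 holds an F-box protein that binds the substrate to be marked for the proteasome. Fbxw proteins bind substrates through WD40 repeats and Fbxl proteins through leucine-rich repeats, while Fbxo proteins carry other or no recognised domains. The mouse genome also holds a compact array of Fbxw genes on chromosome 9 that is known for transcripts in the oocyte, the RNA of which is inherited by the early embryo.

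The genes described here were those whose symbol began with Fbxo, Fbxw or Fbxl and went on with a number. The rule gave 77 of the 24883 genes in the table, of which 36 were Fbxo, 19 Fbxl and 22 Fbxw genes. Of these, 13 lay in the chromosome 9 array, 40 were on a list of members known from many tissues, and 24 were on neither. One of the 77, Fbxl12os, is annotated as a transcribed pseudogene. The RNA came from C57BL/6 mouse embryos and was sequenced in 8 libraries by Smart-seq, in which very little total RNA is copied into cDNA and amplified. The libraries formed 4 groups of 2, labelled 2C, 8C, CX22 and CX45. The first pair of names was read as the 2-cell and 8-cell stages, and the sources used here spell out neither CX22 nor CX45. They name no control, no embryo age beyond the group name and no number of embryos per library, and strain and passage number were the same throughout. Levels are FPKM (fragments per kilobase of transcript, scaled to sequencing depth), summed over the transcripts of a gene.

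The FPKM steps implied depths of 9720000 to 20300000 fragments per library, at which 3 fragments of a transcript of 1.5 kb correspond to 0.0985 to 0.206 FPKM. The 2C libraries differed by only 1.32 times the chance median of sampling noise, against 39.9 to 137.8 times in the other groups, and entered the fit as 1 averaged sample that was assumed to vary like the others. Nothing said that the libraries of a group came from separate embryo pools, so the p-values measure the spread between these libraries, which may be technical. The CX22 libraries stood furthest apart, with 333 genes above 10 FPKM in one and at 0 in the other. An exact 0 may be a failed estimate, since Gapdh had an exact 0 in 4 libraries and at most 0.519 FPKM elsewhere. Of the 77 F-box genes, 52 reached 1 FPKM in at least 2 libraries and were tested, and 25 did not. The untested ones peaked at 3.77 FPKM (Fbxl16), and 6 of them were listed at 0 in every library. All 13 array genes were tested, and so were 30 of the 40 widely expressed and 9 of the 24 other members.

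The array stretched from 109041968 to 109693164 on chromosome 9 of mm9, a span of 651 kb in which the table placed these 13 genes and no other. Promoter sequences were taken from RefSeq on build GRCm38.p6, which held 57 of the 77 members and 10 of the 13 array genes. The first set below shows 130 bases upstream of the start of array genes that were high, middling and low in 2C, because the array promoters resembled each other so closely. Capitals mark the hexamers CAGCTG and TTTAAA, which were picked after the sequences had been read, each of which reads the same on both strands.
Fbxw24, chr9:109626060-109626189, minus strand: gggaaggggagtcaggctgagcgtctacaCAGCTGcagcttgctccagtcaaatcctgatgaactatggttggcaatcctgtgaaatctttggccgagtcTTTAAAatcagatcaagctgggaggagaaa
Fbxw28, chr9:109339660-109339789, minus strand: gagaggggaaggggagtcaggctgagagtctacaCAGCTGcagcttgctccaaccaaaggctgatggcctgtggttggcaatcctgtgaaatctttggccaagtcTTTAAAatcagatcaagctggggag
Fbxw14, chr9:109287677-109287806, minus strand: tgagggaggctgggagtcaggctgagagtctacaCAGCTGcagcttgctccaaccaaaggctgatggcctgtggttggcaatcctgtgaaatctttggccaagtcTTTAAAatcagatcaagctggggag
Fbxw15, chr9:109568263-109568392, minus strand: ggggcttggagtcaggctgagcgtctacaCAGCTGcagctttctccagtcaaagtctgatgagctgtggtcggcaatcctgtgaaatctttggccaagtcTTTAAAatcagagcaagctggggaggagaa
Fbxw20, chr9:109234755-109234884, minus strand: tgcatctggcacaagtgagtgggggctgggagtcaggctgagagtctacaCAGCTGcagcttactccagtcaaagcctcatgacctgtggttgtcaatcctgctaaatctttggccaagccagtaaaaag

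Over 300 bases, from 250 before to 50 after the start, the 10 array promoters were 83.4% to 97.3% identical in pairs, with a median of 90.9% over 45 pairs. The closest pair was Fbxw14 and Fbxw28. The longest run shared by all 10 was 12 bases, aaatctttggcc. CAGCTG was found in 10 of the 10 array promoters, in 13.3% of the 30 widely expressed ones and in 16.1% of all 27025 promoters in the table. TTTAAA was found in 9 of the 10, Fbxw20 being the exception, against 13.3% and 13.2%. Both hexamers stood together in 90.0% of array promoters, in 6.67% of the widely expressed ones and in 1.78% of all promoters. In the 17 promoters of the other members the shares were higher than over all promoters, at 35.3% for CAGCTG, 23.5% for TTTAAA and 11.76% for both. The classical TATA hexamer TATAAA was found in none of the 10, and in 14.2% of all. It was also in 0 of the 30 widely expressed and 0 of the 17 other members' promoters, so its absence was not particular to the array. These matches describe letters in a window, not binding.

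The hexamers also stood at similar positions, which in promoters so alike is not separate from their shared presence. TTTAAA began 25 to 30 bases before the start in 7 of the 9 promoters that held it, at -54 in Fbxw19 and at -10 in Fbxw18. CAGCTG began between -159 and -153 and again between -101 and -96 in most of them, and in Fbxw20 once, at -80. Array promoters held a median of 1 CG dinucleotide per 300 bases (range 0 to 4), against 21 (range 5 to 56) in the widely expressed members and 7 over all promoters. Their median GC content was 49.7%, against 61.7% in the widely expressed members and 52.7% over all promoters.

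**Figure D1:**
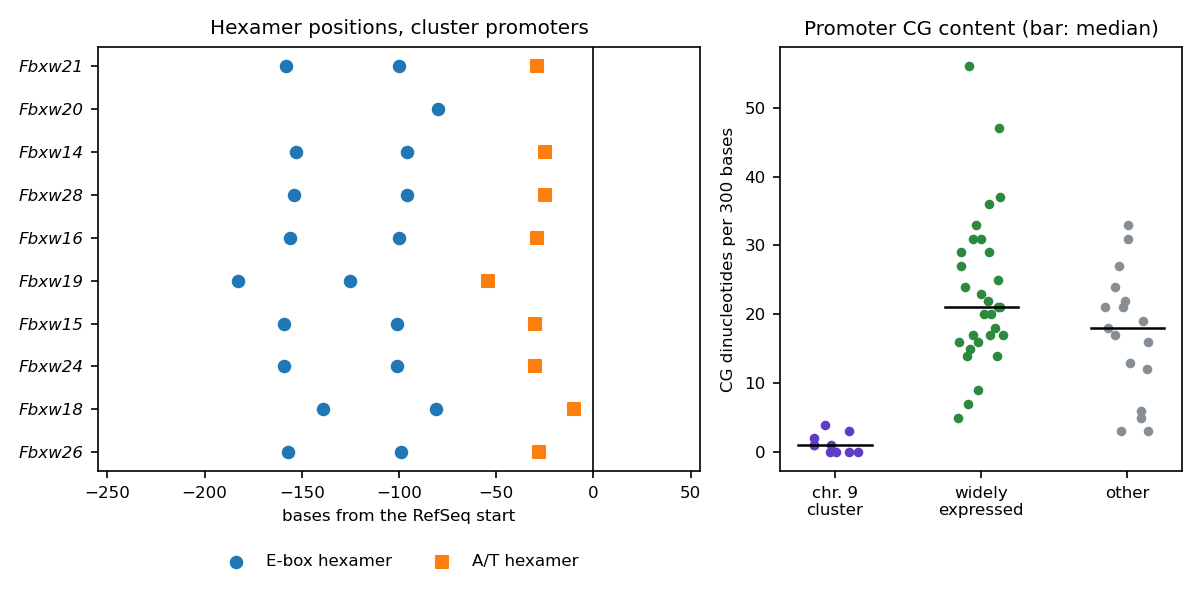
Left, position of the hexamers CAGCTG (circles, E-box hexamer) and TTTAAA (squares, A/T hexamer) in bases from the RefSeq start in the 10 array promoters, genes in chromosomal order. Right, CG dinucleotides per 300 bases of promoter, 1 point per gene, with the class median as a bar, which was 1 for the array and 21 for the widely expressed members.

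The second set shows the same 130 bases for 3 widely expressed members, Fbxo11, Fbxo33 and Fbxw11, with CG dinucleotides in capitals. The 3 windows held 18, 14 and 16 of them, against 2 in that of Fbxw24, and the 300-base promoters of these genes were 44.8%, 45.6% and 47.0% identical to that of Fbxw24.
Fbxo11, chr17:88066046-88066175, minus strand: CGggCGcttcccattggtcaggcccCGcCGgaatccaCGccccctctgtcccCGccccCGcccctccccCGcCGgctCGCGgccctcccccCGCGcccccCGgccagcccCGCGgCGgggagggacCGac
Fbxo33, chr12:59219484-59219613, minus strand: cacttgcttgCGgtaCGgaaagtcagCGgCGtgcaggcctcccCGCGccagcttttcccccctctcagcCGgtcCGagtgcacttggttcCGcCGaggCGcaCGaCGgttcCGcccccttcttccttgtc
Fbxw11, chr11:32642425-32642554, plus strand: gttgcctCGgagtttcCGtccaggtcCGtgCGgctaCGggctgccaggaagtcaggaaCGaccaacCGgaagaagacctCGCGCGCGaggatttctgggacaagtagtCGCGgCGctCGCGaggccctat

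The array's transcripts dominated F-box RNA in the 2C and CX22 libraries and were a minor part of it in 8C. Their summed level was 1968 and 2020 FPKM in 2C, 1518 and 1844 in CX22, 219 and 293 in CX45, and 38.2 and 50.7 in 8C. That was 67.1% and 68.1% of the summed level of all 77 members in 2C, 59.6% and 68.1% in CX22, 14.9% and 17.1% in CX45, and 1.8% and 2.4% in 8C. The 40 widely expressed members together lay between 318 FPKM in an 8C library and 821 in a CX22 library. FPKM is a share of each library's RNA, so less of a transcript and more of other RNA cannot be told apart. Nor can fewer cells with a transcript and less of it per cell, since each value covers a whole library. The summed level of 10 sperm markers was also higher in 2C and CX22 than in 8C and CX45. It was 18.7 to 19.6 FPKM in 2C and 34.0 to 42.9 in CX22, against 0 to 0.495 in 8C and 0 to 4.91 in CX45. From 2C to CX22 the sperm sum was higher and the array sum lower. Of the 10, 4 reached 1 FPKM in some library, and Tnp2, Spata18 and Smcp were listed at 0 in all 8. Their part in the array's levels was not tested.

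Fbxw24 was the most abundant array gene in every library. Its levels were 631 and 620 FPKM in 2C, 595 and 544 in CX22, 84.1 and 118 in CX45, and 14.3 and 19.0 in 8C. The estimates rested on about 11263 and 11783 fragments in 2C and on 379 and 574 in 8C. The CX45 libraries thus stood above both 8C libraries and below all 2C and CX22 libraries, with no overlap.

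Fbxw28 lay at 265.5 and 284 FPKM in 2C, 155 and 179 in CX22, 19.8 and 22.1 in CX45, and 5.92 and 7.99 in 8C. Fbxw14 lay at 282 and 284.5 in 2C, 124 and 242 in CX22, 28.7 and 28.0 in CX45, and 4.37 and 8.64 in 8C. For both, the order from 8C through CX45 to CX22 and 2C held without overlap. Of all 50-base stretches of the Fbxw14 transcript, 53.5% also occurred in another array transcript, and 41.8% of those of Fbxw28, so the split of reads between these is uncertain. For the other 11 genes the share was 3.3% (Fbxw24) to 13.2% (Fbxw19), and the read length is not given in the sources used here.

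Fbxw16 gave 166 and 179.6 FPKM in 2C, 205 and 86.9 in CX22, 25.5 and 22.3 in CX45, and 2.78 and 2.64 in 8C. Fbxw19 gave 169 and 176 in 2C, 125 and 200.2 in CX22, 16.4 and 30.8 in CX45, and 2.41 and 3.34 in 8C. Fbxw15 gave 90.4 and 97.3 in 2C, 133.5 and 198 in CX22, 18.6 and 25.6 in CX45, and 3.07 and 6.17 in 8C. Fbxw15 was the one among these whose CX22 libraries both stood above both 2C libraries. In Fbxw16 and Fbxw19 the CX22 pair spanned the 2C pair.

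Fbxw22 fell furthest on the fitted scale, from 136 and 151 FPKM in 2C to 0.0363 and 0.393 in 8C, of which the first is under the level of 3 fragments. It lay at 86.7 and 191.5 in CX22 and at 2.79 and 10.5 in CX45. Fbxw27 lay at 74.0 and 74.6 in 2C, 38.0 and 57.5 in CX22, 2.01 and 7.92 in CX45, and 2.01 and 0.641 in 8C. For Fbxw27 the lower CX45 library did not exceed the higher 8C library. Fbxw21 lay at 70.4 and 69.35 in 2C, 3.65 and 36.9 in CX22, 6.96 and 5.25 in CX45, and 0.0377 and 1.16 in 8C. The CX22 pair of Fbxw21 spanned the CX45 pair.

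The array's less abundant genes followed with wider scatter. Fbxw18 had 39.6 and 41.4 FPKM in 2C, 19.7 and 41.3 in CX22, 7.29 and 13.6 in CX45, and 1.33 and a listed 0 in 8C. Fbxw26 had 28.2 in both 2C libraries, 9.86 and 27.0 in CX22, 0.0995 and 4.92 in CX45, and a listed 0 and 0.108 in 8C. Fbxw20 had 14.9 and 14.0 in 2C, 15.4 and 39.5 in CX22, 4.62 and 1.62 in CX45, and 1.96 and 0.424 in 8C. For Fbxw26 and Fbxw20 the CX45 and 8C libraries overlapped. Fbxw13 was low throughout, at 0.672 and 0.629 in 2C, 7.16 and 0.0556 in CX22, 1.77 and 2.65 in CX45, and a listed 0 and 0.199 in 8C, and was the 1 array gene with no high value in 2C.

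**Figure D2:**
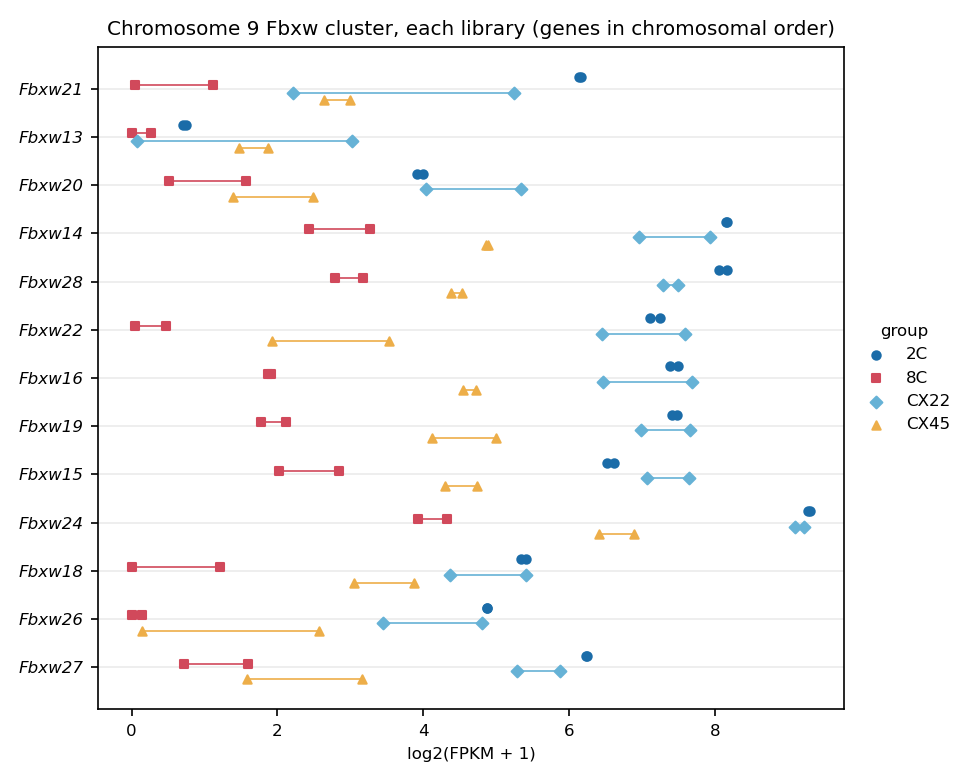
Levels of the 13 array genes as log2(FPKM + 1), genes in chromosomal order from top to bottom, 1 point per library and a line joining the 2 libraries of a group. For 12 genes the 2C points lie right of both CX45 points, and Fbxw13 near 0 is the exception.

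Between 2C and 8C, 11 of the 13 array genes fell and 0 rose, where fell and rose mean a limma adjusted p under 0.05 over all 11867 genes tested and a log2 change of at least 1. Of all genes tested, 20.7% fell and 16.4% rose. The array's median log2 change was -5.13 (range -6.91 to -0.59), against -0.04 over all genes tested. Fbxw24 fell by 5.16 (SE 0.33, adjusted p = 0.00197), Fbxw28 by 5.13 (SE 0.30, adjusted p = 0.00194) and Fbxw22 by 6.91 (SE 0.86, adjusted p = 0.00637), all on the log2(FPKM + 1) scale, which understates the change of low genes. The 2 not called were Fbxw20 (-2.91, SE 0.89, adjusted p = 0.0609) and Fbxw13 (-0.59, SE 1.23, adjusted p = 0.73). Both 2C libraries stood above both 8C libraries for 13 of 13 array genes, for 22 of the 39 tested members outside it and for 46.6% of all genes tested. The array's median was -4.97 without the first 8C library and -5.32 without the second. In both cases fewer array genes were called, and fewer of all genes. The calls of Fbxw14, Fbxw15, Fbxw16, Fbxw19, Fbxw24 and Fbxw28 held with each library left out in turn. The others were lost without the first 8C library (Fbxw22), the second (Fbxw18), either (Fbxw27), either or any CX45 library (Fbxw21), and either or any CX22 library (Fbxw26).

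Outside the array the members were called about as often as other genes or less. Of the 30 widely expressed ones 6 fell and 2 rose, with a median of -0.84, and of the 9 others 2 fell and 1 rose, against 20.7% and 16.4% of all genes. The fall of 6 of 30 thus matched the background. Over all 52 tested members 19 fell and 3 rose. Of the 11 calls outside the array, those of Fbxo15, Fbxo8 and Fbxl7 held with each library left out in turn. Those of Fbxo11, Fbxo31, Fbxo43 and Fbxl14 were lost without either 8C library, that of Fbxo6 without the second, that of Fbxl5 without either or without the first CX45 library, and those of Fbxl4 and Fbxw11 without any one 8C or CX45 library.

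The members that rose from 2C to 8C were Fbxo15, Fbxo6 and Fbxo31. Fbxo15, a gene known as a target of Oct4 and Sox2 in embryonic stem cells, stood at 154 and 150.4 FPKM in 2C, 121 and 99.1 in CX22, 572 and 765.5 in CX45, and 1708 and 1661 in 8C. Its log2 change from 2C to 8C was 3.46 (SE 0.29, adjusted p = 0.00283), and the 8C libraries lay above all others. Its 8C estimates rested on about 43762 and 48456 fragments. In 8C it made most of the other members' 83.2% and 80.7% share of all F-box RNA.

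Fbxo6, which binds glycoproteins carrying high-mannose sugars, stood at 6.28 and 6.14 FPKM in 2C, a listed 0 and 0.0685 in CX22, 9.17 and 9.97 in CX45, and 50.5 and 83.0 in 8C. It rose by 3.19 (SE 0.46, adjusted p = 0.00926) on the log2 scale from 2C to 8C. Fbxo31, which directs cyclin D1 to degradation after DNA damage, stood at 1.05 and 0.929 in 2C, a listed 0 in both CX22 libraries, 4.89 and 7.29 in CX45, and 7.56 and 8.90 in 8C. For both genes the CX22 libraries were the lowest of the 8.

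The members outside the array that fell from 2C to 8C included 2 of the most abundant. Fbxo11, a receptor for the repressor BCL6, stood at 232 and 226 FPKM in 2C, 299 and 159 in CX22, 88.6 and 62.9 in CX45, and 33.8 and 34.8 in 8C. Fbxo8, which carries a Sec7 domain, stood at 147 and 141 in 2C, 109 and 117 in CX22, 9.54 and 10.6 in CX45, and 15.9 and 11.4 in 8C. The changes were -2.70 (SE 0.46, adjusted p = 0.0137) for Fbxo11 and -3.33 (SE 0.31, adjusted p = 0.00353) for Fbxo8. The genes differed in CX45, where Fbxo11 lay above both 8C libraries and Fbxo8 below both.

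Fbxl5, the iron-sensing receptor for the iron regulatory protein Ireb2, stood at 54.5 and 54.1 FPKM in 2C, 62.1 and 42.9 in CX22, 20.1 and 12.8 in CX45, and 17.6 and 13.4 in 8C. Fbxw11, a beta-TrCP protein that binds beta-catenin and I-kappa-B, stood at 12.8 and 12.0 in 2C, 14.1 and 10.6 in CX22, 25.55 and 26.3 in CX45, and 3.57 and 3.54 in 8C. From 2C to 8C they fell by 1.76 (SE 0.44, adjusted p = 0.0358) and by 1.55 (SE 0.36, adjusted p = 0.0291). Fbxw11 was highest in CX45, with no overlap with any other group, whereas the Fbxl5 libraries of CX45 and 8C overlapped.

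Fbxo43, also called Emi2, is the inhibitor of the anaphase-promoting complex that holds the egg in metaphase II. It stood at 9.30 and 9.24 FPKM in 2C, 9.02 and 15.2 in CX22, 4.68 and 6.81 in CX45, and 0.597 and 0.452 in 8C, and fell by 2.75 (SE 0.54, adjusted p = 0.0191) from 2C to 8C. Its relative Fbxo5, or Emi1, which restrains the same complex in the mitotic cycle, stood at 78.8 and 72.8 in 2C, 122 and 75.6 in CX22, 9.99 and 25.0 in CX45, and 34.4 and 46.0 in 8C. The Fbxo5 change from 2C to 8C was -0.91 (SE 0.63, adjusted p = 0.305) and was not called. Both CX45 libraries were below all others for Fbxo5 but between 8C and 2C for Fbxo43.

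Of the other Fbxl genes, Fbxl14, a receptor for Snail, stood at 6.03 and 5.22 FPKM in 2C, 5.06 and 6.25 in CX22, a listed 0 and 0.205 in CX45, and 0.438 and 0.432 in 8C. Fbxl7, which acts on Aurora A, stood at 11.4 and 11.7 in 2C, 6.71 and 6.39 in CX22, a listed 0 and 0.0341 in CX45, and a listed 0 in both 8C libraries. Fbxl4, a mitochondrial protein, stood at 7.43 and 6.61 in 2C, 1.79 and a listed 0 in CX22, 0.470 and 1.37 in CX45, and a listed 0 and 0.293 in 8C. All 3 fell from 2C to 8C, with adjusted p = 0.0137, 0.00361 and 0.0381.

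Other named members were not called between 2C and 8C. Fbxo33, which targets the RNA-binding protein YB-1, stood at 56.9 and 59.6 FPKM in 2C, 72.1 and 41.6 in CX22, 109 and 118 in CX45, and 31.0 and 29.4 in 8C. It was lowest in 8C and highest in CX45, with a log2 change from 2C to 8C of -0.92 (SE 0.39, adjusted p = 0.123).

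Fbxw7, the receptor for cyclin E and Myc, stood at 7.09 and 7.22 FPKM in 2C, 17.8 and 5.95 in CX22, 2.57 and 0.464 in CX45, and 1.03 and 1.16 in 8C, and was called in none of the 5 comparisons. Fbxo7, a partner of parkin, was low in 2C (0.0982 and 0.230), 8C (1.22 and 0.706) and CX22 (a listed 0 and 1.80) and stood at 7.94 and 2.98 in CX45. Fbxo7 was not called either, with a change of 2.36 (SE 0.83, adjusted p = 0.0957) from 2C to CX45.

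**Figure D3:**
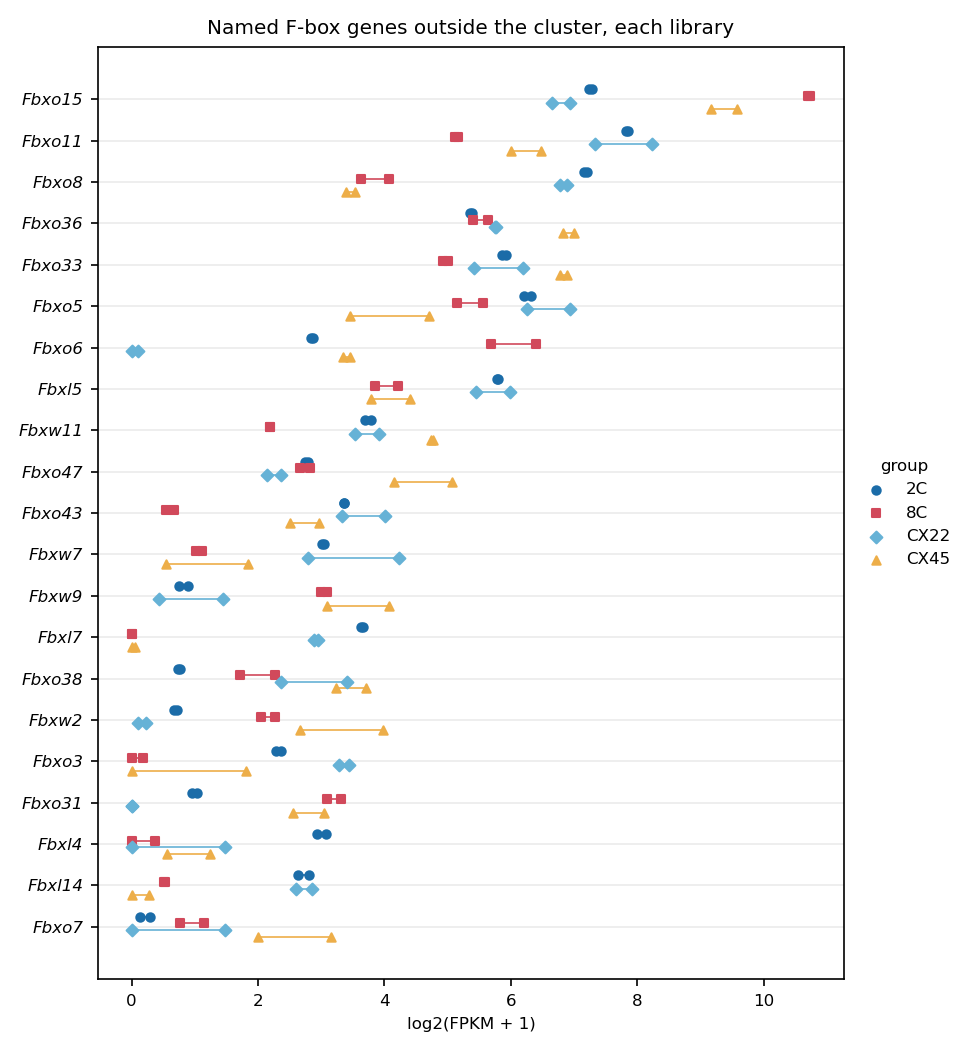
Levels of the 21 named members outside the array as log2(FPKM + 1), ordered by highest group mean, 1 point per library and a line joining the 2 libraries of a group. Fbxo15 is highest in 8C, Fbxo11 and Fbxo8 are high in 2C and CX22, and Fbxo36, Fbxo33 and Fbxw11 are highest in CX45.

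No tested member was called between 2C and CX22. By limma 0 of 52 rose and 0 fell, against 0.598% and 3.29% of all genes tested, and at an unadjusted p under 0.05 there was 1 higher and there were 3 lower, against 5.11% and 11.1% of all genes. The array's median log2 difference was -0.37, against -0.07 over all genes. With 8 separate libraries, 1 member rose and 3 fell, smaller shares than the 4.16% and 9.44% of all genes. Fbxo6 came nearest among the members named, at -2.80 (SE 0.46, adjusted p = 0.0535, range over the alternatives 0.00393 to 0.181). Fbxo38, a receptor for PD-1 in T cells, stood at 0.698 and 0.671 FPKM in 2C, 9.62 and 4.17 in CX22, 12.1 and 8.37 in CX45, and 3.80 and 2.28 in 8C, with a difference of 2.14 (SE 0.66, adjusted p = 0.209) between CX22 and 2C. Both CX22 libraries stood above both 8C libraries for 12 of the 13 array genes, Fbxw13 excepted, for 19 of the 39 other tested members and for 31.5% of all genes tested.

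Between 8C and CX45 the array genes all differed in one direction, but 1 was called. Fbxw24 rose by 2.53 (SE 0.27, adjusted p = 0.0475), and 0 members fell, while 0.455% of all genes rose and 0.202% fell. The Fbxw24 call was lost without any one 8C, CX22 or CX45 library, and over the alternatives its adjusted p ran from 0.00628 to 0.3. All 13 log2 differences were positive (0.90 to 2.85), with a median of 2.08 against 0.31 over all genes. After quantile normalization or median of ratios scaling, with the all-gene median at 0, the array's median was 1.54. With either scaling 0 of the 11867 genes tested were called, members included. Without any one 8C, CX22 or CX45 library the calls of all other genes were lost along with that of Fbxw24. Both CX45 libraries exceeded both 8C libraries for 10 of the 13 array genes, 20 of the 39 other tested members and 40.4% of all genes tested. At an unadjusted p under 0.05, 8 of the 13 were higher, against 15.0% of all genes tested. With the 2C libraries entered separately, 7 array genes rose, against 7.08% of all genes.

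Against 2C, CX45 was lower across most of the array. Of its 13 genes 8 fell and 0 rose, against 13.6% and 16.2% of all genes tested, and the median log2 difference was -2.88 against 0.33. Both 2C libraries exceeded both CX45 libraries for 12 of the 13, for 15 of the 39 other tested members and for 38.3% of all genes. Fbxw24 fell by 2.64 (SE 0.33, adjusted p = 0.00914) and Fbxw28 by 3.65 (SE 0.30, adjusted p = 0.00442), and these 2 calls held with each library left out in turn. Those of Fbxw14, Fbxw15, Fbxw16, Fbxw19, Fbxw22 and Fbxw27 were all lost without the first CX45 library. All of these but Fbxw14 were also lost without either 8C library. The second CX45 library was needed for Fbxw14, Fbxw15 and Fbxw16, and either CX22 library for Fbxw27. The array's median was -2.88 without either 8C library, -2.56 without the first CX45 library and -3.15 without the second. In each case fewer array genes were called, and fewer of all genes. The 2C libraries serve in this comparison, in that of 8C and in that of CX22, so the 3 are not independent.

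Of the 39 tested members outside the array 4 fell and 6 rose from 2C to CX45, near the shares of all genes, 13.6% and 16.2%. Those that fell were Fbxo8 (-3.71, SE 0.31, adjusted p = 0.00467), Fbxl7 (adjusted p = 0.00578), Fbxl14 (-2.59, SE 0.38, adjusted p = 0.0126) and Fbxl5 (-1.70, SE 0.44, adjusted p = 0.0455). The Fbxo8 and Fbxl7 calls held with each library left out in turn, that of Fbxl14 was lost without either 8C library, and that of Fbxl5 without any one 8C or CX45 library. Those that rose were Fbxo15 (2.11, SE 0.29, adjusted p = 0.011), Fbxo36, Fbxo31, Fbxo38, Fbxw2 and Fbxw9. After median of ratios scaling, 2 of the 52 members rose and 14 fell, in place of 6 and 12. Over all genes 1448 rose and 1821 fell, in place of 1923 and 1611.

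Fbxo36 stood at 40.7 and 40.0 FPKM in 2C, 52.9 and 53.5 in CX22, 127.5 and 112 in CX45, and 48.9 and 41.3 in 8C. Fbxw2, a receptor for the placental factor Gcm1, stood at 0.591 and 0.646 in 2C, 0.0727 and 0.176 in CX22, 5.33 and 14.8 in CX45, and 3.83 and 3.14 in 8C. Fbxw9 stood at 0.687 and 0.854 in 2C, 0.345 and 1.71 in CX22, 7.55 and 15.8 in CX45, and 7.02 and 7.52 in 8C. In these 3 genes the CX45 libraries were the highest of the 8. Their log2 changes from 2C to CX45 were 1.54 (SE 0.25, adjusted p = 0.016) for Fbxo36, 2.63 (SE 0.67, adjusted p = 0.0449) for Fbxw2 and 2.76 (SE 0.71, adjusted p = 0.045) for Fbxw9. The calls of Fbxo31, Fbxo38 and Fbxw9 were lost without any one 8C or CX45 library, that of Fbxw2 without any one 8C or CX22 library or the second CX45 library, and that of Fbxo36 without the first CX45 library.

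Against CX22, CX45 showed 9 array genes that fell and 0 that rose, with a median of -2.75 against 0.47 over all genes, of which 13.5% fell and 23.0% rose. The log2 changes were -2.50 (SE 0.27, adjusted p = 0.00574) for Fbxw24, -2.84 (SE 0.41, adjusted p = 0.00955) for Fbxw15 and -4.30 (SE 0.70, adjusted p = 0.0126) for Fbxw22. The array calls of Fbxw19, Fbxw24 and Fbxw28 held with each library left out in turn. The Fbxw15 call was lost without the first CX45 library and that of Fbxw22 without the second CX22 library. That of Fbxw14 was lost without either CX45 library, and that of Fbxw16 without any one 8C or CX45 library. Fbxw20 lost its call without any one 8C, CX22 or CX45 library, and Fbxw27 without either 8C, the first CX22 or the first CX45 library. The array's median was -2.75 without either 8C library, -2.42 without the first CX45 library and -2.74 without the second. In each case fewer array genes were called, and fewer of all genes. Without the first CX22 library the array's median was -3.05, and without the second it was -2.43.

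Outside the array 7 of the 39 tested members fell and 8 rose from CX22 to CX45, against 13.5% and 23.0% of all genes. Fbxo8 (-3.36, SE 0.25, adjusted p = 0.00391), Fbxo5 (-2.52, SE 0.52, adjusted p = 0.0216) and Fbxo11 (-1.54, SE 0.38, adjusted p = 0.0342) were among those that fell. Fbxo6 (3.35, SE 0.38, adjusted p = 0.00622) and Fbxo15 (2.58, SE 0.24, adjusted p = 0.00475) were among those that rose. Fbxo3 stood at 4.13 and 3.88 FPKM in 2C, 9.82 and 8.71 in CX22, a listed 0 and 2.51 in CX45, and a listed 0 and 0.128 in 8C, and fell by 2.45 (SE 0.67, adjusted p = 0.0464). Fbxo47 stood at 5.94 and 5.695 in 2C, 3.40 and 4.13 in CX22, 16.8 and 32.7 in CX45, and 5.36 and 6.04 in 8C, and rose by 2.36 (SE 0.43, adjusted p = 0.016). The calls of Fbxo15, Fbxo8, Fbxo6, Fbxo31, Fbxl7 and Fbxl14 held with each library left out in turn. Those of Fbxo5 and Fbxo3 were lost without any one 8C or CX22 library or the first CX45 library, and those of Fbxo11, Fbxl5 and Fbxw9 without any one 8C or CX45 library or the first CX22 library. That of Fbxo47 was lost without either 8C or the second CX45 library, that of Fbxw2 without either 8C library and that of Fbxo36 without the first CX45 library.

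**Figure D4:**
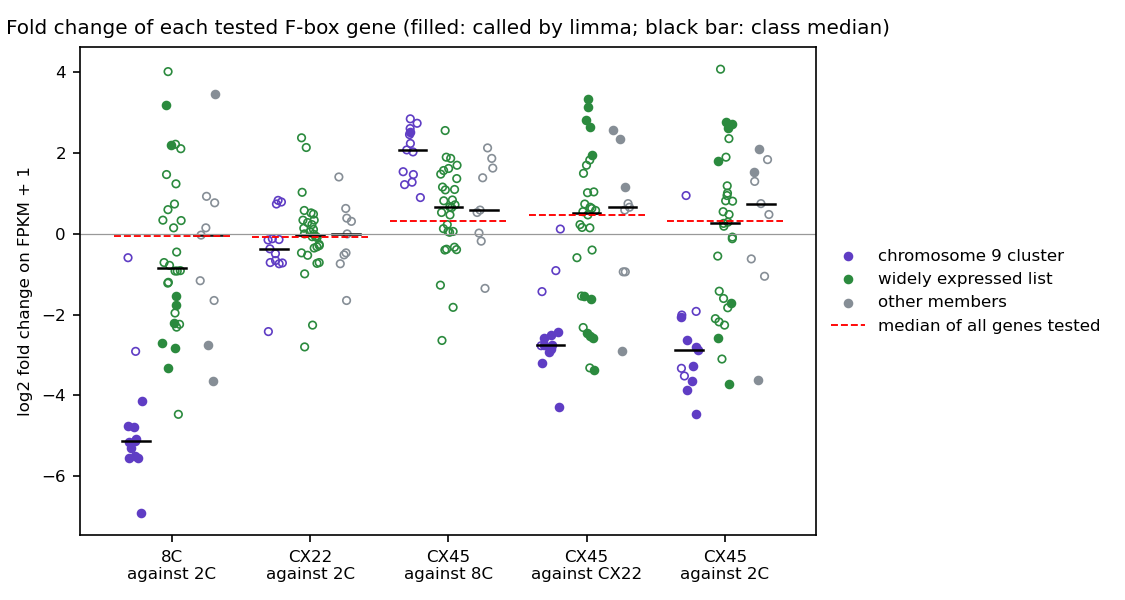
Log2 fold change on the FPKM + 1 scale of each of the 52 tested F-box genes in 5 comparisons, by class, with called genes filled, class medians as black bars and the median of all genes tested as a dashed line. The array medians are -5.13, -0.37, 2.08, -2.75 and -2.88 from left to right.

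The members called widely expressed were not level across groups. At 1 FPKM or more in all 8 libraries stood 14 of the 40, beside 6 of the 13 array genes and 3 of the other 24. Among those 17 members outside the array the highest group mean was 1.65 (Fbxo9) to 15.3 (Fbxo15) times the lowest. Among the 6 array genes it was 35.9 (Fbxw15) to 63.8 times (Fbxw16) the lowest, which was 8C for each of them.

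The common parts of the ligase were measured in the same libraries. Cul1, the scaffold, stood at 637 and 634 FPKM in 2C, 668 and 703 in CX22, 108 and 118 in CX45, and 83.6 and 71.7 in 8C. Its log2 change was -3.02 (SE 0.23, adjusted p = 0.00228) from 2C to 8C and -2.48 (SE 0.23, adjusted p = 0.00544) from 2C to CX45. The 2C and CX22 libraries all stood above the 8C and CX45 libraries.

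Skp1, the adaptor, stood at 482 and 485 FPKM in 2C, 465 and 501 in CX22, 1023 and 1125 in CX45, and 515 and 436 in 8C. Its log2 change was -0.03 (SE 0.24, adjusted p = 0.944) from 2C to 8C and 1.15 (SE 0.24, adjusted p = 0.028) from 2C to CX45. Rbx1, the RING protein, stood at 822 and 847 in 2C, 784.5 and 652 in CX22, 524 and 330.2 in CX45, and 352 and 235 in 8C, and fell by 1.53 (SE 0.42, adjusted p = 0.0462) from 2C to 8C. The Rbx1 call was lost without any one 8C, CX22 or CX45 library, and with a pseudocount of 0.1, no filter, median of ratios scaling or no trend. That of Skp1 was lost without any one 8C or CX45 library, and its change became 0.41 (adjusted p = 0.298) after quantile normalization and 0.80 (adjusted p = 0.0605) after median of ratios scaling, whereas both Cul1 calls held with each library left out in turn. Cul1 and Rbx1 were thus lower in 8C than in 2C, whereas Skp1 was highest in CX45.

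Rnf7, a second RING protein that pairs mainly with cullin 5, stood at 102 and 105 FPKM in 2C, 99.4 and 137 in CX22, 1137 and 1112 in CX45, and 2713 and 2558 in 8C. The conjugating enzyme Ube2d2a stood at 808 and 784 in 2C, 1112 and 733 in CX22, 77.7 and 74.7 in CX45, and 24.8 and 35.0 in 8C. From 2C to 8C Rnf7 rose by 4.66 (SE 0.28, adjusted p = 0.00194) and Ube2d2a fell by 4.71 (SE 0.37, adjusted p = 0.00252). Sugt1, a co-chaperone that binds Skp1, rose by 3.05 (SE 0.20, adjusted p = 0.00353) from CX22 to CX45, and the conjugating enzyme Ube2g1 fell by 3.32 (SE 0.31, adjusted p = 0.00353) from 2C to 8C. Of the 14 tested genes of the core list, 2 rose and 5 fell from 2C to 8C, against 16.4% and 20.7% of all genes. From 2C to CX45 4 rose and 4 fell, against 16.2% and 13.6%, and from CX22 to CX45 4 rose and 4 fell, against 23.0% and 13.5%. From this list 0 were called by limma between 2C and CX22 or 8C and CX45. At an unadjusted p under 0.05 there were 1 higher and 0 lower in CX22 than in 2C, against 5.11% and 11.1% of all genes, and 5 higher and 2 lower in CX45 than in 8C, against 15.0% and 4.28%.

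**Figure D5:**
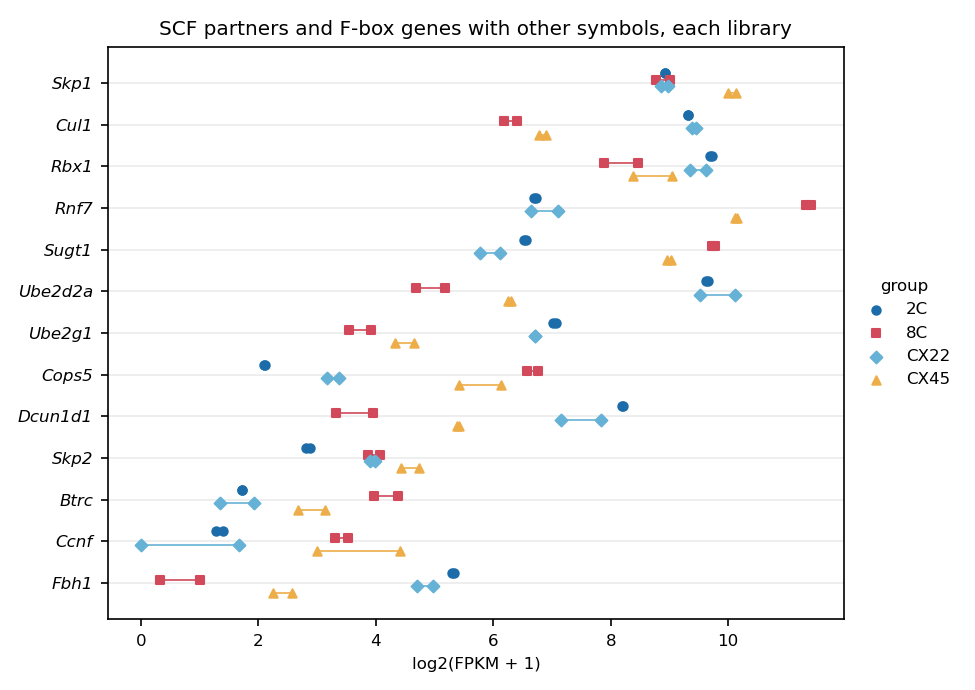
Levels of ligase partners and of F-box genes with other symbols as log2(FPKM + 1), 1 point per library and a line joining the 2 libraries of a group. Cul1, Ube2d2a, Dcun1d1 and Fbh1 are high in 2C and CX22, Rnf7, Sugt1 and Cops5 in 8C and CX45, and Skp1 in CX45.

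Cullins are switched on by attachment of the small protein Nedd8 and off by the COP9 signalosome. Of 20 tested genes of these systems, 6 rose and 5 fell from 2C to 8C, where 16.4% and 20.7% of all genes did. From 2C to CX45 4 rose and 5 fell, where 16.2% and 13.6% of all genes did, and from CX22 to CX45 4 rose and 7 fell, where 23.0% and 13.5% did. Cops5, the subunit that removes Nedd8, stood at 3.33 and 3.26 FPKM in 2C, 9.38 and 8.03 in CX22, 41.8 and 68.8 in CX45, and 94.6 and 108 in 8C, and rose by 4.57 (SE 0.40, adjusted p = 0.00308) from 2C to 8C. Dcun1d1, which helps to attach Nedd8, stood at 292 and 293 in 2C, 141 and 228 in CX22, 41.5 and 40.6 in CX45, and 14.4 and 8.98 in 8C, and fell by 4.56 (SE 0.43, adjusted p = 0.00358). These 2 transcripts moved in opposite directions. Ube2f, a Nedd8-conjugating enzyme, was the 1 gene of the list called between 2C (0.133 and a listed 0) and CX22 (12.4 and 11.1), with adjusted p = 0.0357. That call was lost without any one 8C or CX45 library or the first CX22 library.

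F-box proteins with other symbols were counted apart, 7 of them tested. Btrc, a beta-TrCP protein like Fbxw11, stood at 2.31 and 2.30 FPKM in 2C, 2.80 and 1.53 in CX22, 5.36 and 7.79 in CX45, and 19.7 and 14.7 in 8C. It rose by 2.45 (SE 0.52, adjusted p = 0.0243) from 2C to 8C, where Fbxw11 fell. Fbh1, a DNA helicase with an F-box, stood at 38.4 and 39.1 in 2C, 30.3 and 24.9 in CX22, 3.76 and 4.96 in CX45, and 0.251 and 1.01 in 8C, and fell by 4.65 (SE 0.49, adjusted p = 0.00442). Lmo7 fell as well, by 2.88 (SE 0.51, adjusted p = 0.0148). The Btrc and Lmo7 calls were lost without either 8C library.

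Skp2, the receptor for the cell-cycle inhibitor p27, stood at 6.36 and 5.999 FPKM in 2C, 13.9 and 14.8 in CX22, 20.6 and 25.7 in CX45, and 13.7 and 15.7 in 8C. It rose by 1.74 (SE 0.33, adjusted p = 0.0228) from 2C to CX45 and differed by 1.12 (SE 0.33, adjusted p = 0.0543) between 2C and 8C, where it was not called. The Skp2 call was lost without any one 8C or CX45 library. Ccnf, cyclin F, stood at 1.42 and 1.63 in 2C, a listed 0 and 2.19 in CX22, 7.03 and 20.3 in CX45, and 8.90 and 10.5 in 8C, and rose by 2.87 (SE 0.79, adjusted p = 0.0469) from CX22 to CX45. That call was lost without any one 8C or CX45 library or the first CX22 library. Each of these was higher in CX45 than in 2C and CX22 in every library.

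Transcripts of 26 known SCF substrates were tested. From 2C to 8C 6 rose and 5 fell, from 2C to CX45 6 rose and 4 fell, and from CX22 to CX45 8 rose and 5 fell. The shares over all genes were 16.4% and 20.7%, 16.2% and 13.6%, and 23.0% and 13.5%, so the substrates as a list stood near the background. Ireb2, the substrate of Fbxl5, stood at 123 in both 2C libraries, 160.5 and 153 in CX22, 33.9 and 30.5 in CX45, and 5.95 and 5.39 in 8C. It fell by 4.22 (SE 0.25, adjusted p = 0.00194) from 2C to 8C and was the 1 substrate called between 8C and CX45, at 2.32 (SE 0.20, adjusted p = 0.0455). The second of these calls was lost without any one 8C, CX22 or CX45 library, as was every other call between 8C and CX45. Plk4, a centriole kinase and substrate of Fbxw11 and Btrc, fell by 3.79 (SE 0.26, adjusted p = 0.00218) from 2C to 8C. Cdkn1a, the inhibitor p21 and a substrate of Skp2, stood at 12.1 and 11.7 in 2C, 18.5 and 11.4 in CX22, 118 and 159.9 in CX45, and 68.3 and 77.4 in 8C, and rose by 3.43 (SE 0.40, adjusted p = 0.00808) from 2C to CX45.

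Markers of blood and cumulus cells were read as well. The 10 blood markers summed to 106 in 2C, 21.6 to 33.6 in 8C, 33.8 to 84.7 in CX22 and 321 to 377 in CX45, of which Hba-a1 made 286 and 347 in CX45. All 10 were above 0 somewhere, and 5 reached 1 FPKM. The 14 cumulus markers summed to 11.9 to 32.2, with 8 at 1 FPKM or more in some library and Amh, Ptx3 and Hsd3b1 at 0 in all. The part of RNA from such cells in the F-box results was not tested.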

How the data were processed

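The deposited table gave FPKM made by the authors, 1 value per RefSeq transcript in each of 8 libraries, on mm9 with HISAT2 (listed as 4.8.2) and Cufflinks 2.2.1, per the submitters' processing notes. The sources used here give no annotation release, strand setting or read length. Of 41876 entries, 41783 matched a gene symbol and 93 (0.006% to 0.212% of a library's FPKM) did not. Entries were summed per gene. Starts counted from 0 and are printed from 1.

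Implied depth was the number of fragments at which low FPKM steps became whole, which 63.4% to 69.2% of the values matched to within 0.05 of a fragment. Depths and floors cover counting error only, since amplified cDNA carries no molecular identifiers. Because the 2C libraries hardly differed, they were averaged, leaving 7 samples and 3 residual degrees of freedom. One limma 3.58.1 fit (R 4.3.3, moderation with a trend) took in the 4 groups on log2(FPKM + 1), over the 11867 genes that reached 1 FPKM in at least 2 libraries, two-sided, with Benjamini-Hochberg adjustment over all of them. In simulated data on 11867 genes, the fit recovered per comparison 50% to 85% of genes with a true log2 change of 4. It recovered 2% to 20% of those with one of 2, 0 took the wrong sign and 2 to 6 unchanged genes were called. The adjusted cut-off depends on how many genes change. These rates thus describe the simulated data only, and are not the power or the error rate of the reported calls. Promoters came from RefSeq (GRCm38.p6), and identities from global alignment in Biopython 1.88.

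The F-box genes, the lists (widely expressed members, core ligase, Nedd8 and COP9 genes, other F-box genes, substrates, and cumulus, sperm and blood markers) and the comparisons were chosen with earlier results of these data known. The array was the Fbxw genes within 2 Mb of Fbxw15 on chromosome 9. Values per library were given for array genes reaching 1 FPKM, for other members called in any comparison with a group mean of at least 5 FPKM, for the 8 with the highest group mean and for Fbxo5, Fbxw7, Fbxw11, Fbxo7, Fbxo11 and Fbxo15. One further gene that the rule named is not reported here. Of the other lists, Skp1, Cul1, Rbx1, Skp2, Btrc, Ccnf and up to 3 called genes with the largest change per list and comparison could be named. The alternatives were another pseudocount, filters, scalings, 8 separate libraries with and without a replicate block, the largest entry per gene, limma without a trend, and each library left out. Where that left 1 library in a group, its spread was taken from the other groups.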

Additional observations from a re-analysis of the deposited data

How the results depend on the processing

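Over 17 alternatives, 161 gene results were followed, of which 110 were called, and 1 reversed: the difference of Cul1 between 8C and CX45, not called, was 0.54 and became -0.05 with median of ratios scaling. With 8 separate libraries the members called numbered 34 in place of 22 between 2C and 8C, 4 in place of 0 between 2C and CX22, 15 in place of 1 between 8C and CX45, and 34 in place of 18 between 2C and CX45. Calls over all genes grew as well, from 37.1% to 56.4%, from 3.89% to 13.6%, from 0.657% to 8.76% and from 29.8% to 51.5%. Same-numbered libraries shared only a number, with correlations of deviations from -0.001 to 0.107. With a replicate block and 8 separate libraries the counts were 35, 2, 14 and 32, beside 55.9%, 11.3%, 5.98% and 50.9% of all genes. Between 2C and CX22, 1 member was called with a pseudocount of 0.1 and 1 with no filter on low values. Over all genes 116 rose and 352 fell with the first, and 60 and 373 with the second. Between 8C and CX45 the count was 2 with a pseudocount of 0.1 and 2 with a filter of 5 FPKM, and 0 with no filter, quantile normalization, median of ratios scaling, the largest entry per gene, or no trend. Over all genes 144 rose and 39 fell with that pseudocount, and 92 and 15 with that filter. With no filter or either scaling 0 rose and 0 fell, with the largest entry 5 and 7, and with no trend 0 and 2. The cause of these moves was not tested. With each library left out in turn, the counts ran from 10 to 25 (2C and 8C), 0 to 1 (2C and CX22), 0 to 1 (8C and CX45), 13 to 24 (CX22 and CX45) and 7 to 23 (2C and CX45). Between 2C and 8C, CX22 and CX45, and 2C and CX45, the lowest were reached without an 8C library, where fewer of all genes were called too. Between 8C and CX45 the calls of all genes, members or not, were lost without any one 8C, CX22 or CX45 library. Scaling moved the median of all genes from 0.47 to 0.06 between CX22 and CX45 and from 0.33 to 0.08 between 2C and CX45 at most. The calls over all genes then shifted from 2729 higher and 1597 lower to 2007 and 2092 (quantile), and from 1923 and 1611 to 1448 and 1821 (median of ratios). Depth limits the 5 array genes that lay under the level of 3 fragments on 1.5 kb in an 8C library (0.0985 to 0.112 FPKM), which were Fbxw13, Fbxw18, Fbxw21, Fbxw22 and Fbxw26.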
